A study of Mus musculus with 12 samples.

Results

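The 79 genes described here encode the proteins of the cytosolic ribosome. They were chosen by name alone: every probe whose gene name on the array was Rpl or Rps followed by a number, with or without 1 letter, or Rplp0 to Rplp2 or Rpsa. The rule took 185 of the 55681 probes and 79 of the 34836 gene names, 48 of them named for the large subunit and 31 for the small subunit. All 79 genes had at least 1 probe clearly above background in every array of some group, and 183 of their 185 probes were tested. Of the 79 genes, 75 are the general ribosomal protein genes and 4, Rpl3l, Rpl10l, Rpl39l and Rps27l, encode second copies of a ribosomal protein.

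The cells were mouse embryonic stem (ES) cells carrying Gata6-GR, a fusion of the endoderm transcription factor Gata6 to the hormone-binding part of the glucocorticoid receptor, which moves to the nucleus when dexamethasone (Dex) is added. Sox7+/- cells had lost 1 allele of the transcription factor gene Sox7, and Sox7-/- cells had lost both. Each genotype was grown for 4 days in medium with LIF, without Dex (called ES cells below) or with Dex (called XEN-like cells, after extraembryonic endoderm). All 4 groups carried the transgene and at least 1 targeted allele, in which a puromycin resistance cassette stands in place of the Sox7 coding sequence, and no Sox7+/+ cells were on the arrays. The Sox7-/- line was derived from the Sox7+/- Gata6-GR line by selection at high puromycin, so each genotype is read from 1 line. Each group had 3 arrays, 12 in all, and the labels do not say whether the 3 came from separate cultures, so the p-values measure only the spread between these samples, which may be technical.

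A ribosome is built from ribosomal RNA, made by RNA polymerase I in the nucleolus, and from ribosomal proteins, which assembly factors fold onto it there. Cells make the proteins of the large and small subunit in like amounts, and growing cells spend much of their messenger RNA on them. Most of these messengers begin with a run of pyrimidines directly at the cap, the TOP tract (terminal oligopyrimidine), through which mTOR and Larp1 control their translation, a step that an array of RNA levels does not read. Because ribosomal protein messengers are abundant and present in every dividing cell, some of them serve as reference genes, and here they are also read as a check on how the arrays were scaled.

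The promoters shown here were searched for a TOP-like tract, which many but not all members carry. They set 2 of the second copies that changed most with Dex beside the general copies. Each is taken from RefSeq (GRCm38.p6), written 5′ to 3′ on the gene's strand, 60 bases before the annotated start and 30 bases from it, with a TOP-like tract in capitals. The tract was searched on the given strand as C followed by at least 5 pyrimidines, beginning from 10 bases before to 40 bases after the start.
Rps6, chr4:86857338-86857427, minus strand: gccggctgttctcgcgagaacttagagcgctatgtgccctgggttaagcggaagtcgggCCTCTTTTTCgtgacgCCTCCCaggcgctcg
Rpl15, chr14:18270957-18271046, minus strand: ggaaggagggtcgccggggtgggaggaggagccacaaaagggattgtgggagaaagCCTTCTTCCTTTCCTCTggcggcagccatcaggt
Rpl39, chrX:37085193-37085282, minus strand: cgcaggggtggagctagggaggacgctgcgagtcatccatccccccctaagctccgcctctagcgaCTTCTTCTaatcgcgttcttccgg
Rpl39l, chr16:10170168-10170257, plus strand: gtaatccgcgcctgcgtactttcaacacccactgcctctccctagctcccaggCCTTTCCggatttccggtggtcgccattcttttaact
Rpl10, chrX:74270756-74270845, plus strand: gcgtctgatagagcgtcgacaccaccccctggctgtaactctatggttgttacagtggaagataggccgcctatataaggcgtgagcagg
Rpl10l, chr12:66284372-66284461, minus strand: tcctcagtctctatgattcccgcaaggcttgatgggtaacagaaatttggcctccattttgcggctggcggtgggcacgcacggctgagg

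In these windows Rps6, Rpl15, Rpl39 and Rpl39l held a TOP-like tract, and those of Rpl10 and Rpl10l held no such tract. RefSeq listed 71 promoters for 59 of the 79 genes. A TOP-like tract stood in 71.8% of them and in 36.2% of all 32851 promoters. The letters CTTTCC, which overlap the tract and were searched on the given strand in the same stretch, stood in 23.9% of member promoters and in 2.38% of all. The ETS-type letters CCGGAAG, searched on both strands over 250 bases before and 50 bases from the start, stood in 35.2% of member promoters and in 8.86% of all. On the same terms AAGATGGC, the core of a YY1 motif, stood in 9.86% against 2.75%, and GGGCGG, a GC box, in 57.7% against 35.7%. The TATA box letters TATAAA, searched on the given strand from 50 bases before to 10 bases after the start, stood in 1.41% against 2.82%. These are counts of letters and say nothing of binding.

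Each value given below as a level is the log2 of a probe's background-corrected signal over the 75th percentile of the signals of its array (75th percentile scaling), and each difference is between the means of 3 arrays on that log2 scale. A difference was said to pass the test when its Benjamini-Hochberg adjusted p in a limma fit of all 12 arrays, over all 25940 tested probes, was under 0.05. A gene was read by its brightest tested probe. The second scaling set each array by 7 E1A_r60 spike-in controls, RNAs of known amount added to the sample, in place of the 75th percentile. The labelled RNA was made from 50 ng of total RNA of each sample, so neither scaling measures the RNA of a cell, and fewer cells of a type and less RNA per cell cannot be told apart.

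The arrays were alike within groups, with correlations of 0.982 to 0.996 between replicates. The 75th percentile of the signals lay between 252 and 414, and 41.7% to 52.3% of the spots exceeded background clearly. Saturated spots were absent. Most ES cell markers and extraembryonic endoderm markers moved in the direction of the labels: with Dex 8 of 10 ES markers fell in each genotype, while Klf4 rose by 1.45 and 0.50 in Sox7+/- and Sox7-/- cells and Dppa5a, at 0.16 and −0.10, did not pass. Of the endoderm markers 11 of 12 rose in Sox7+/- cells and 10 of 12 in Sox7-/- cells. Sox7 was not well above background on any Sox7-/- array. Markers of other cells moved too. With Dex, 3 of the 4 tested fibroblast markers fell in each genotype, and all 5 tested trophectoderm markers fell in Sox7+/- cells against 2 of 5 in Sox7-/- cells. In Sox7-/- cells the trophectoderm marker Eomes rose by 0.53 and passed, and Cdx2 and Krt7 did not pass. The summed level of the 6 fibroblast markers lay between 1.88 and 2.22 on the 6 ES arrays and between −1.02 and −0.25 on the 6 XEN-like arrays. That of the 6 trophectoderm markers fell from 3.05 to 3.07 down to −0.07 to 0.17 in Sox7+/- cells and from 2.09 to 2.18 down to 1.34 to 1.42 in Sox7-/- cells. Their part in the differences given below was not tested. The Sox7-/- ES arrays and replicate 1 of Sox7-/- XEN-like cells were on slide 1, and the other 8 arrays on slide 2.

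The general ribosomal protein genes were near the top of the signal range in all 4 groups. The median level over the 75 genes was 9.02, 8.97 and 9.04 on the arrays of Sox7+/- ES cells and 9.01, 9.03 and 8.99 on those of Sox7+/- XEN-like cells. It was 9.18, 9.33 and 9.15 in Sox7-/- ES cells and 8.96, 8.87 and 8.81 in Sox7-/- XEN-like cells. The 3 Sox7-/- ES arrays stood above all others, the 3 Sox7-/- XEN-like arrays below all others, and the 6 Sox7+/- arrays lay between and overlapped. As means these were 9.01 ± 0.03, 9.01 ± 0.02, 9.22 ± 0.10 and 8.88 ± 0.07 (SD, n = 3 each).

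The spike-in scaling gave another order. The same median was then 9.36, 9.10 and 9.23 in Sox7+/- ES cells, 8.91, 8.84 and 8.48 in Sox7+/- XEN-like cells, 9.22, 9.33 and 9.30 in Sox7-/- ES cells and 8.90, 8.95 and 8.74 in Sox7-/- XEN-like cells. All 6 ES arrays stood above all 6 XEN-like arrays, and within each cell state the genotypes overlapped. The means were 9.23 ± 0.13, 8.74 ± 0.23, 9.28 ± 0.05 and 8.86 ± 0.11 (SD, n = 3 each). The scalings differ by the height of the 75th percentile itself over the spike-ins, which was 0.22 ± 0.11 in Sox7+/- ES cells and −0.27 ± 0.21 in Sox7+/- XEN-like cells, but 0.07 ± 0.08 and −0.02 ± 0.08 in Sox7-/- ES and XEN-like cells, each relative to the mean of the 12 arrays. The raw spike-in signals differed between ES and XEN-like cells by −0.02 to 0.11 over both genotypes, and between the genotypes by 0.11 to 0.23.

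**Figure D1:**
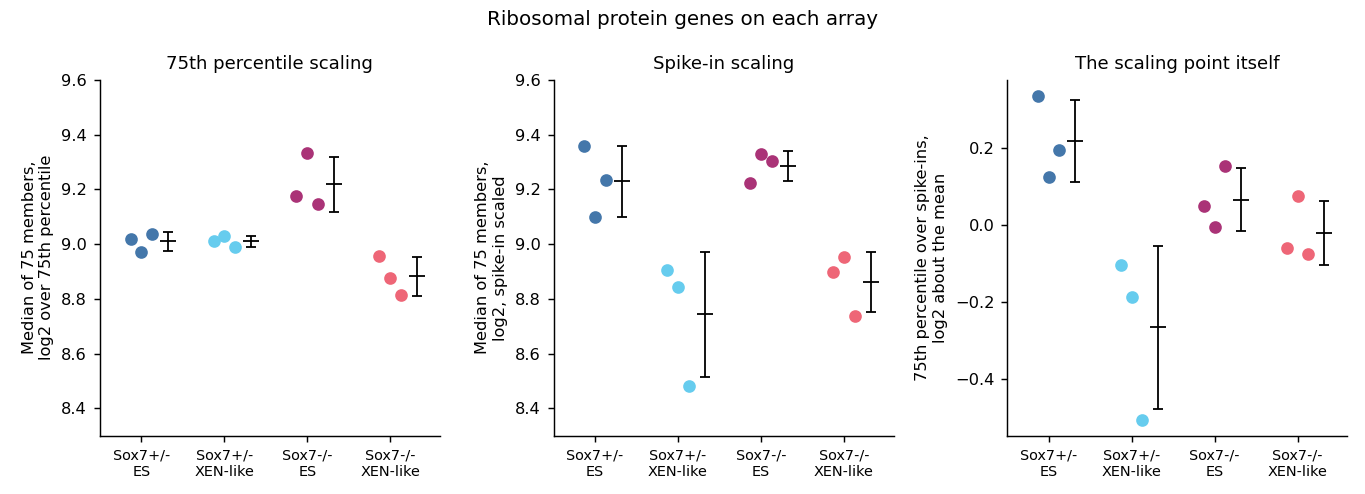
Median log2 level of the 75 general ribosomal protein genes on each of the 12 arrays, grouped by genotype and culture, under 75th percentile scaling and under spike-in scaling; points are arrays and bars the means of 3 with their SD, and the panel at the right plots the 75th percentile over the spike-ins in log2 about the mean of the arrays. Under the 75th percentile the Sox7+/- groups coincide at 9.01, while under the spike-ins all XEN-like arrays (8.48 to 8.95) lie below all ES arrays (9.10 to 9.36).

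In Sox7+/- cells the question was how the module differed after 4 days with Dex. All arrays carried the transgene, so an effect of Dex itself and one of Gata6 cannot be told apart. The general genes hardly moved: their median difference was 0.10, beside 0.15 over all tested probes. Of the 79 members 22 rose and 4 fell, where 37.2% of all tested probes rose and 25.3% fell. Over 2-fold by the fitted values, 0 members rose and 3 fell, beside 10.9% and 14% of all tested probes. These were the second copies Rpl10l, Rpl39l and Rpl3l, of which Rpl3l has only a bound of at least 1.05-fold, since no Sox7+/- XEN-like array read it well above background. At an unadjusted p under 0.05 in the same limma fit 26 were higher and 5 lower. The share of all tested probes at that unadjusted threshold is not given, here or beside the unadjusted counts below.

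By subunit, 15 of 45 general large-subunit genes rose and 1 fell, with a median of 0.12, and 7 of 30 small-subunit genes rose and 0 fell, with a median of 0.09. The largest rise was that of Rpl15, a protein of the large-subunit core, measured at chr14:19101657-19101716 (mm9). Its level was 8.45, 8.41 and 8.39 in ES cells and 8.72, 8.84 and 8.69 in XEN-like cells. Every XEN-like array stood above every ES array, and the difference was 0.34 (SE 0.07, adjusted p = 0.0015). Rps20 rose by 0.33 (adjusted p = 0.0036) and Rpl23 by 0.30 (adjusted p = 0.0034). Rplp0, the anchor of the stalk that recruits elongation factors and a common qPCR reference, rose from 9.61, 9.63 and 9.57 to 9.72, 9.81 and 9.95, a difference of 0.22 (adjusted p = 0.035). Rpl13a, another common reference gene, differed by −0.02, from 8.46, 8.40 and 8.51 to 8.39, 8.46 and 8.47, and its groups overlapped.

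The only general gene that fell was Rpl30, at chr15:34371013-34371072 (mm9), a large-subunit protein that binds its own transcript in yeast. Its levels were 8.25, 8.20 and 8.12 in ES cells and 8.01, 8.10 and 7.79 in XEN-like cells, a difference of −0.22 (SE 0.09, adjusted p = 0.047). When 1 array was left out it lay between −0.28 and −0.13, and it no longer passed in 11 of 12 such fits. Among the genes with roles beyond protein synthesis, Rpsa, also known as the laminin receptor, rose by 0.26 (adjusted p = 0.02), Rpl38, needed for translation of Hox messengers, by 0.18 (adjusted p = 0.036) and Rpl10, which is placed late in large-subunit maturation, by 0.27 (adjusted p = 0.006). Rpl11, which with Rpl5 and the 5S RNA holds Mdm2 when assembly fails, rose by 0.19 (adjusted p = 0.045), whereas Rpl5 differed by −0.02 and did not pass. Rps19, a small-subunit maturation protein mutated in Diamond-Blackfan anaemia, differed by 0.17 (adjusted p = 0.059), Rps6, the target of S6 kinase, by 0.09 and Rps27a, made as a fusion with ubiquitin, by 0.09. None of these 3 passed.

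All of these small rises depended on the scaling. Under spike-in scaling 0 members were higher and 57 lower, with a median of −0.39 beside −0.34 over all tested probes, of which 11.5% were higher and 44.1% lower. Rpl15 was then at −0.15, Rps20 at −0.16, Rpl23 at −0.18 and Rps6 at −0.40. Over 2-fold by the fitted values, 0 were higher and 3 lower, again Rpl10l, Rpl39l and, near background, Rpl3l, beside 4.83% and 21.2% of all tested probes. All 6 Sox7+/- arrays were on slide 2. Without replicate 1, or replicate 2, of Sox7+/- ES cells, or replicate 2 of Sox7+/- XEN-like cells, the count of 22 that rose became 13, 9 and 9. Under spike-in scaling the count of 57 lower became 34 without replicate 1 of Sox7+/- ES cells.

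In Sox7-/- cells the same culture with Dex gave lower levels across the module. The median difference was −0.28, beside 0.07 over all tested probes. Of the 79 members 0 rose and 54 fell, where 33.9% of all tested probes rose and 31.4% fell, and at an unadjusted p under 0.05 in limma 0 were higher and 57 lower. Over 2-fold, 0 rose and 3 fell, the same second copies by name, Rpl3l, Rpl10l and Rpl39l, beside 14.5% and 14.3% of all tested probes. The middle 50% of members, a range of quartiles, lay between −0.39 and −0.15, so the change was small and shared by large-subunit genes (31 of 45 fell, median −0.28) and small-subunit genes (20 of 30 fell, median −0.27).

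Among general genes the largest fall was that of Rps2, a small-subunit protein at the entry of the messenger channel, measured at chr17:24857583-24857642 (mm9). Its levels were 8.90, 8.95 and 8.82 in ES cells and 8.31, 8.19 and 8.14 in XEN-like cells. The groups were far apart, with a difference of −0.67 (SE 0.10, adjusted p = 0.00012). Rpl30 fell by 0.65 (adjusted p = 7.5e-05), from 8.39, 8.53 and 8.44 to 7.87, 7.79 and 7.77. Rps18 fell by 0.55 (adjusted p = 0.00011) and Rpl18 by 0.55 (adjusted p = 6e-05). Rps6, at chr4:86500748-86500807 (mm9), fell by 0.41 (adjusted p = 0.001), from 8.98, 9.04 and 8.95 to 8.69, 8.56 and 8.47.

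Other members barely differed. Rpl7a was at −0.01, Rps21 at −0.03, Rpl23 at −0.04, Rps24 at −0.05 and Rplp0 at −0.09, and none of these passed. Rplp0 had levels of 9.77, 9.91 and 9.68 without Dex and 9.74, 9.66 and 9.68 with it. In contrast Rpl13a fell by 0.30 (adjusted p = 0.0019), from 8.65, 8.68 and 8.56 to 8.34, 8.38 and 8.28, and Rpl11 fell by 0.31, Rps27a by 0.25, Rpl38 by 0.21 and Rps19 by 0.19, all past the test. Rpsa at −0.15, Rpl5 at −0.17 and Rpl10 at −0.08 did not pass.

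The direction in Sox7-/- cells was the same under spike-in scaling, where 0 members were higher and 48 lower with a median of −0.37, beside −0.01 over all tested probes, of which 26.4% were higher and 31.1% lower. The fall was smaller in count when the slide was a block, with 27 lower. The count of 48 under spike-in scaling became 32 without replicate 3 of Sox7-/- XEN-like cells. Under quantile normalization 6 members were higher and 20 lower.

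Without Dex, the genotypes were compared to see whether the module already differed in ES cells. Under the 75th percentile 65 of 79 members stood higher in ES cells that were Sox7-/- and 0 were lower, with a median of 0.27 beside 0.10 over all tested probes, of which 28.2% were higher and 16.9% lower. At an unadjusted p under 0.05 in limma 70 were higher and 0 lower. Only Rpl10l passed with over 2-fold, where 1.94% of all tested probes were higher by that rule and 6.67% lower. Among general genes Rpl36a was higher by 0.47 (adjusted p = 0.0014), at 8.01, 7.94 and 7.87 against 8.41, 8.47 and 8.36, and Rps9 by 0.47 (adjusted p = 0.001), at 8.61, 8.63 and 8.54 against 9.07, 9.13 and 8.99. Rps6 was higher by 0.41 (adjusted p = 0.0024) and Rpl13a by 0.18 (adjusted p = 0.046), which no longer passed in 10 of 12 fits without 1 array. Rps21 at 0.00, Rpl7a at 0.09 and Rpl4 at 0.13 were the general genes that differed least.

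Under spike-in scaling 1 member was higher, Rpl10l, and 0 lower, with a median of 0.12 beside −0.06 over all tested probes, of which 7.97% were higher and 18.2% lower. At an unadjusted p under 0.05 6 were higher. The Sox7-/- ES arrays filled slide 1 with 1 other array, and with the slide as a block 0 members were higher and 0 lower at a median of 0.18, so slide and genotype cannot be told apart here except through the 1 Sox7-/- XEN-like array on that slide. Without replicate 2 of Sox7-/- ES cells the count of 65 became 42.

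With Dex, the genotypes were close. In XEN-like cells 1 member, Rpl10l, was higher in Sox7-/- cells and 3 were lower, where 19.1% of all tested probes were higher and 15.3% lower, with a median of −0.11 beside 0.00. Over 2-fold 1 was higher and 0 lower, beside 3.87% and 3.64%. The 3 lower genes were Rps2 (−0.31, adjusted p = 0.029), Rpl8, a protein at the peptidyl transferase centre (−0.21, adjusted p = 0.047), and Rplp1 of the stalk (−0.21, adjusted p = 0.049). Rps2 had levels of 8.42, 8.43 and 8.74 in Sox7+/- cells and 8.31, 8.19 and 8.14 in Sox7-/- cells, and replicate 3 of Sox7+/- cells stood above its group. Rpl5 differed by 0.17 and Rpl36a by 0.13, neither past the test. Under spike-in scaling 1 was higher and 0 were lower, at a median of 0.13 beside 0.25, where 28.1% of all tested probes were higher and 5.52% lower. At an unadjusted p under 0.05 that scaling gave 6 higher and 0 lower. The count of 3 lower became 0 without replicate 2 or replicate 3 of Sox7-/- XEN-like cells and 10 without replicate 1 of Sox7+/- XEN-like cells. It became 1 without any of the replicates 1, 2 and 3 of Sox7+/- ES cells or replicate 1 of Sox7-/- ES cells.

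Whether the genotypes differed in their response to Dex was tested directly as an interaction. It was below 0, that is, a lower Dex response in Sox7-/- cells, for 57 of 79 members past the test and above 0 for 0, with a median of −0.39 beside −0.09 over all tested probes, of which 12.4% passed above 0 and 14.8% below. Over 2-fold 0 passed, beside 6.64% above and 3.16% below. At an unadjusted p under 0.05 in limma 72 were below and 0 above. The largest among general genes were Rps2 (−0.63, SE 0.13, adjusted p = 0.0072), Rps18 (−0.54, adjusted p = 0.0057), Rpl19 (−0.51, adjusted p = 0.0079) and Rpl11 (−0.51, adjusted p = 0.0066). Rps6 was at −0.50 (adjusted p = 0.0092), Rplp0 at −0.32 (adjusted p = 0.068) and Rpl5 at −0.15 without passing.

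The interaction was absent from the counts under the other scaling. Under the spike-ins 0 members passed in either direction at a median of 0.01, beside 0.31 over all tested probes, of which 18.6% passed above 0 and 2.17% below, and at an unadjusted p under 0.05 1 was above and 0 below. Since any scaling by 1 factor per array moves all probes of an array alike, the distance of the members' median from that of all tested probes is the same under both: −0.05 for Dex in Sox7+/- cells, −0.36 for Dex in Sox7-/- cells, 0.18 for the genotypes in ES cells, −0.12 in XEN-like cells and −0.30 for the interaction. With quantile normalization, which moves bright and dim probes separately, these distances were −0.13, −0.12, −0.0023, −0.01 and 0.03. With the slide as a block 6 members passed below 0, and Rps2 (adjusted p = 0.059) and Rpl11 (adjusted p = 0.057) no longer did. The count of 57 became 36 without replicate 1 or replicate 2 of Sox7+/- ES cells, and 35 without replicate 2 or replicate 3 of Sox7-/- XEN-like cells.

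**Figure D2:**
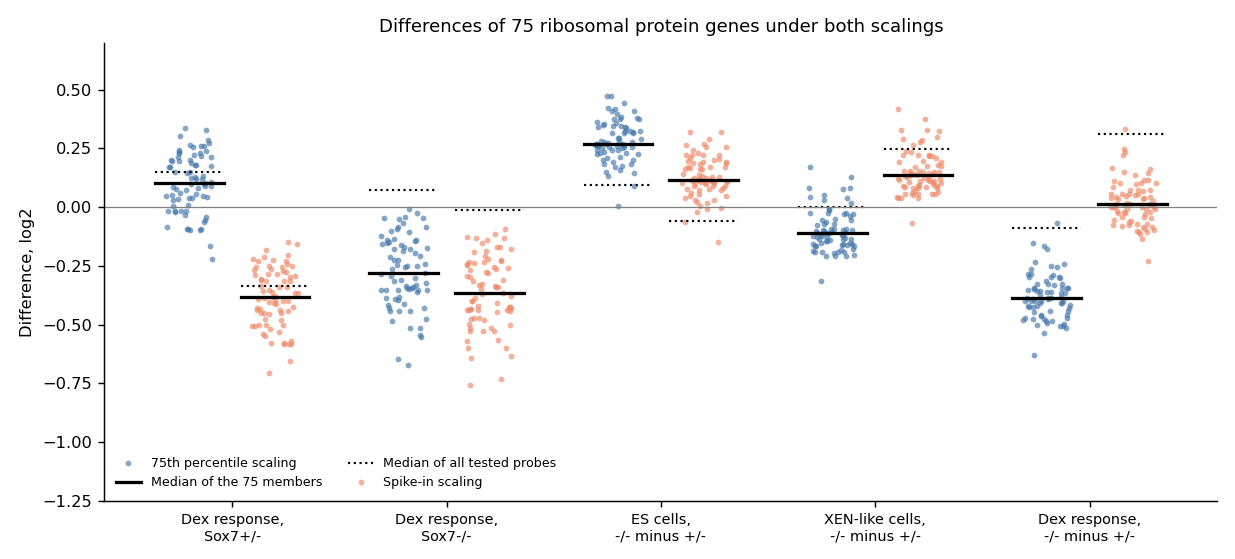
Log2 differences of the 75 general ribosomal protein genes (brightest probe) in the 5 comparisons, under 75th percentile and spike-in scaling; each point is 1 gene, thick lines are medians of the 75 genes and dotted lines medians of all tested probes. With Dex the genes lie within −0.22 to 0.34 in Sox7+/- cells and −0.67 to −0.01 in Sox7-/- cells under the 75th percentile, and the interaction centres on −0.39 under the 75th percentile and on 0.01 under the spike-ins.

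Members were then set against their own median on each array, which gives the same result whichever factor scales the array. This takes out the movement of that median but not all of the shared movement. The members' median difference with Dex stayed slightly above 0 in both genotypes. Genes counted as above or below the rest are therefore not counted from the middle of the members. On that scale the 75 general genes spread by an SD of 0.125 with Dex in Sox7+/- cells and 0.152 in Sox7-/- cells. In Sox7+/- cells 23 lay above the rest and 2 below past the test, beside 35.3% and 26.2% of all tested probes on the same scale, and in Sox7-/- cells 19 lay above and 8 below, beside 51.8% and 20.3%. These Dex comparisons share no array but were fitted together, with the same estimate of each probe's spread. The share of all tested probes above or below in both is not given here. Of the general genes 15 were above in both, 2 were below in both and 0 were opposite. Those above included Rpl10, Rpl15, Rpl23, Rpl31, Rpl41, Rplp0, Rplp1, Rps12 and Rps24, and those below were Rpl12 and Rpl30. Rpl15 was at 0.31 and 0.28, Rpl23 at 0.28 and 0.29, Rpl30 at −0.24 and −0.32 and Rpl12 at −0.19 and −0.18, each in Sox7+/- and then Sox7-/- cells. Rps2 was at −0.07 and −0.34, and its difference between the genotypes on this scale did not pass (adjusted p = 0.098). Across the 75 genes the Dex differences of both genotypes had a Pearson r of 0.77 and a Spearman rho of 0.78, a description across genes whose points share the probe, its base composition and its signal range.

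**Figure D3:**
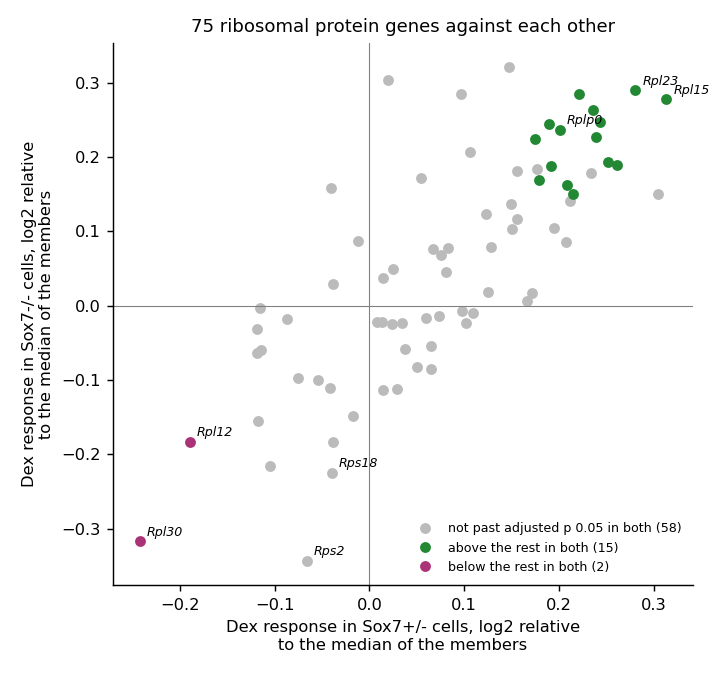
Log2 difference with Dex of each of the 75 general ribosomal protein genes relative to the members' median, in Sox7+/- cells on one axis and Sox7-/- cells on the other; each point is 1 gene, coloured where it passed the test in both genotypes. Genes above the rest in both (15) lie at the upper right, with Rpl15 and Rpl23 near 0.3 on both axes, and Rpl12 and Rpl30 lie at the lower left.

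Of the second copies, Rpl10l and Rpl39l behaved unlike the general genes, while Rpl3l was near background and Rps27l did not pass with Dex. Rpl10l is a retrogene copy of the X-linked Rpl10, known from the male germ line, where it stands in for the silenced X copy in meiosis. At chr12:67384403-67384462 (mm9) its level was 3.89, 3.81 and 3.96 in Sox7+/- ES cells and −1.32, −1.98 and −0.24 in Sox7+/- XEN-like cells. It was 5.15, 5.17 and 5.02 in Sox7-/- ES cells and 0.86, 0.69 and 0.59 in Sox7-/- XEN-like cells. The 4 groups did not overlap, and each genotype lost most of the signal with Dex: it fell by 5.06 (SE 0.33, adjusted p = 4.1e-07) in Sox7+/- cells and fell by 4.40 (adjusted p = 9.3e-07) in Sox7-/- cells.

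Rpl10l was also higher in Sox7-/- than in Sox7+/- cells, by 1.23 (adjusted p = 0.013) without Dex and by 1.89 (adjusted p = 0.002) with it, while its interaction of 0.66 did not pass (adjusted p = 0.32). With the slide as a block the ES difference was 1.01 and no longer passed (adjusted p = 0.33). A second probe at chr12:67384868-67384927 fell with Dex by 4.91 and 4.41. It was not well above background on any Sox7+/- XEN-like array, so its fall there was at least 20.8-fold (adjusted p = 3.4e-07), and Sox7-/- XEN-like cells stood at least 2.56-fold higher than these (adjusted p = 0.0015). These bounds set the brighter group's mean against the lowest signal well above background on each dim array, or against the probe's own signal if this exceeded it. The general copy Rpl10 had levels of 9.42, 9.42 and 9.29 in Sox7+/- ES cells and 9.59, 9.69 and 9.64 in Sox7+/- XEN-like cells, and it differed by 0.27 and −0.08 with Dex.

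Rpl39l is a copy of the X-linked Rpl39, whose product lines the exit tunnel of the ribosome. At chr16:10174657-10174716 (mm9) it was at 3.43, 3.41 and 3.41 in Sox7+/- ES cells and 1.04, 0.88 and 2.09 in Sox7+/- XEN-like cells. For the Sox7-/- line the values were 3.93, 4.25 and 3.95 without Dex and 1.01, 1.06 and 1.16 with it. Every XEN-like array stood below every ES array, and it fell by 2.08 (SE 0.26, adjusted p = 5e-05) and fell by 2.96 (adjusted p = 2.8e-06). The general copy Rpl39 differed by 0.12 and −0.05 and did not pass in either genotype. Replicate 3 of Sox7+/- XEN-like cells was the highest of its group for both Rpl10l and Rpl39l. Without it the interaction of Rpl10l was 1.13 (adjusted p = 0.0051) and that of Rpl39l, −0.88 (adjusted p = 0.098) with all arrays, was −0.51 (adjusted p = 0.021).

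Rpl3l, the copy of Rpl3 known from skeletal and heart muscle, was near background throughout. Its probe crosses an intron at chr17:24872413-24872681 (mm9). Levels were −3.73, −3.47 and −2.58 in Sox7+/- ES cells and −2.33, −2.43 and −2.47 in Sox7-/- ES cells, and the probe was not well above background on any XEN-like array. Its fall with Dex was therefore at least 1.05-fold in Sox7+/- cells (adjusted p = 0.043) and at least 2.51-fold in Sox7-/- cells (adjusted p = 0.00023). In Sox7+/- cells the measured difference of −1.31 lay between −1.996 and −0.85 when 1 array was left out, and it no longer passed in 10 of 12 such fits. Rps27l, a copy of Rps27 induced by p53, was at 7.55, 7.53 and 7.62 and at 7.57, 7.56 and 7.96 in Sox7+/- cells without and with Dex, and its differences of 0.13 and −0.10 did not pass in either genotype.

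**Figure D4:**
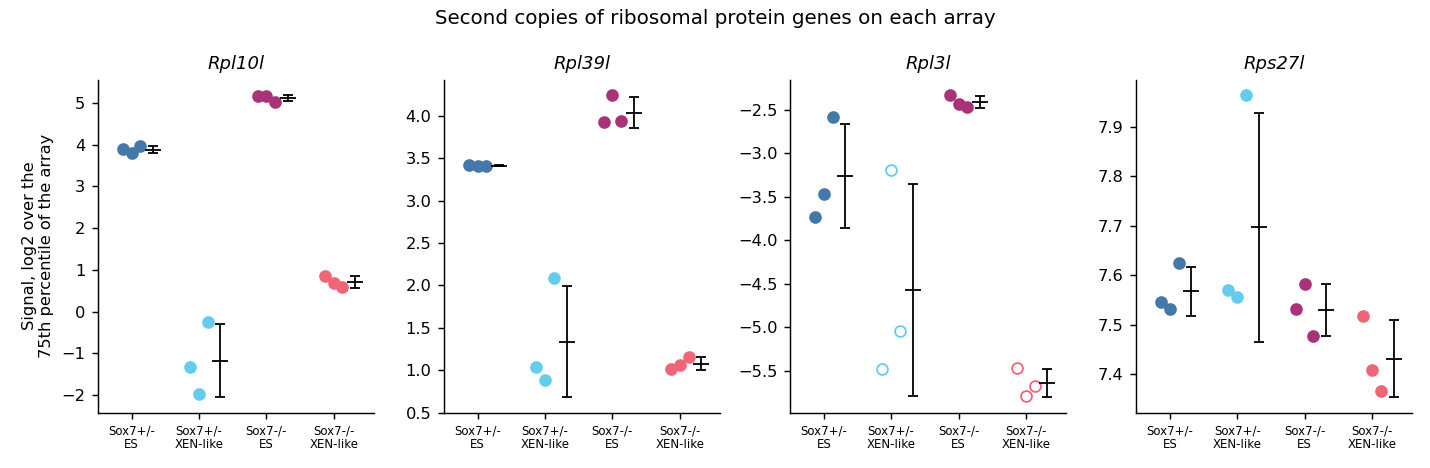
Log2 level on each of the 12 arrays of the second copies Rpl3l, Rpl10l, Rpl39l and Rps27l, grouped by genotype and culture; bars are means of 3 with their SD, and open points mark values not well above background. Rpl10l falls from 3.81 to 3.96 down to −1.98 to −0.24 in Sox7+/- cells and from 5.02 to 5.17 down to 0.59 to 0.86 in Sox7-/- cells, while Rps27l stays between 7.37 and 7.96.

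Most genes had several probes, and these were used to see how far a gene's value depended on the probe. Of the 79 genes 61 had more than 1 tested probe, and the differences of the probes of a gene spanned a median of 0.11 with Dex in Sox7+/- cells and 0.12 in Sox7-/- cells, as wide as many of the general genes' differences. Ribosomal protein genes have many processed copies in the genome, and 3 genes had probes on more than 1 chromosome, so a probe of 60 bases may read more than 1 of them. The brightest probe of Rps27, for example, is placed on chromosome 9 by the array, while RefSeq places the gene's promoter on chromosome 3. In Sox7+/- cells Rpl15 and Rps24 had probes that passed the test in opposite directions with Dex.

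For Rps24, the opposite probe was one that crosses an intron. Rps24 encodes a small-subunit protein and its transcript is known to be spliced in several ways near the end of the coding sequence. This probe was placed at chr14:25312695-25315015 (mm9), with 1 RefSeq transcript listed, and its first 30 bases are given to identify it.
Rps24 junction probe, first 30 bases: aatgttggtgctggcaaaaagtgagtggag

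The junction probe read 8.65, 8.75 and 8.55 in Sox7+/- ES cells and 7.42, 7.53 and 7.25 in Sox7+/- XEN-like cells. For the Sox7-/- line it read 9.40, 9.44 and 9.34 without Dex and 5.87, 5.86 and 5.73 with it. The 4 groups did not overlap. It fell by 1.25 (SE 0.09) in Sox7+/- cells and by 3.57 in Sox7-/- cells, whereas the brightest Rps24 probe rose by 0.24 and differed by −0.05. Relative to the mean of the other Rps24 probes, the junction probe was at 0.09 ± 0.12 and −1.40 ± 0.20 in Sox7+/- ES and XEN-like cells and at 0.68 ± 0.05 and −2.84 ± 0.07 in Sox7-/- cells (SD, n = 3 each). This ratio within an array does not depend on the scaling by 1 factor. The interaction of the junction probe was −2.32 (SE 0.12, adjusted p = 1.1e-06), and −1.92 under spike-in scaling. Its group means differed between the genotypes by 0.74 without Dex and −1.58 with it. The probe was picked out after its values were seen.

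**Figure D5:**
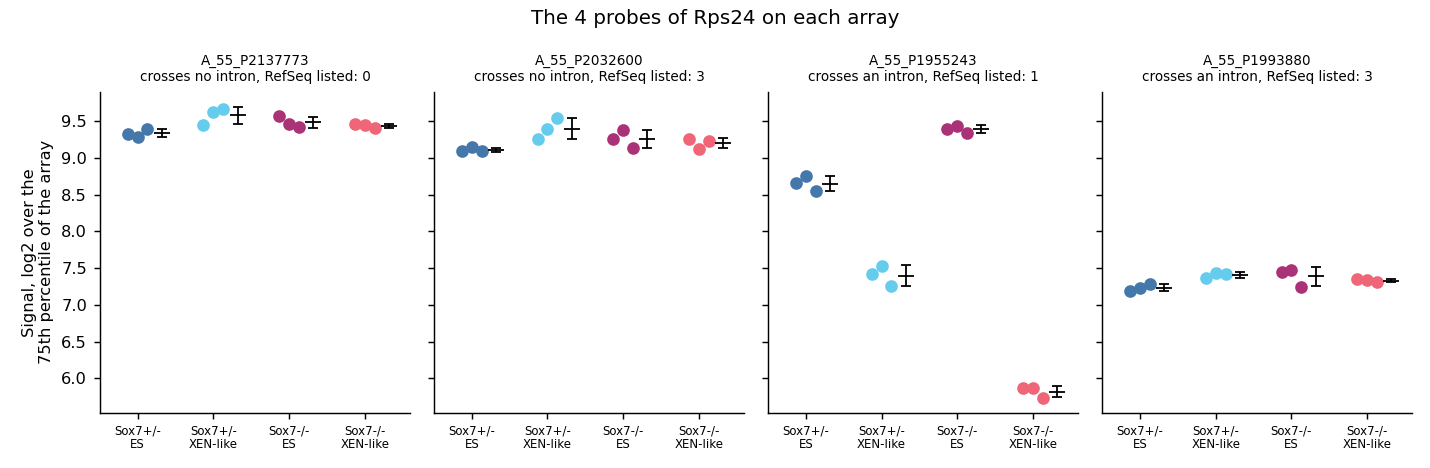
Log2 level of the Rps24 probes on each of the 12 arrays, grouped by genotype and culture; each panel is 1 of the 4 probes, points are arrays and bars the means of 3 with their SD. The junction probe, A_55_P1955243, falls to between 7.25 and 7.53 in Sox7+/- XEN-like cells and to between 5.73 and 5.87 in Sox7-/- XEN-like cells, and the brightest probe rises by 0.24 in Sox7+/- cells.

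For Rpl15, a second probe of far lower signal fell by 0.62 and 1.12 with Dex in Sox7+/- and Sox7-/- cells, from 4.13, 4.23 and 4.17 to 3.70, 3.70 and 3.26 and from 4.98, 5.05 and 4.91 to 3.89, 3.90 and 3.79. One Rps27a probe was not well above background on any Sox7+/- XEN-like array, where its fall was at least 2.34-fold. One spot of a Rpl10 probe read −2.04 on replicate 3 of Sox7+/- ES cells against 9.15 to 9.66 on the other arrays, and this probe did not pass in any Dex comparison. None of these was the brightest probe of its gene.

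The rest of the ribosome pathway was read from lists of genes outside the naming rule. Ribosome assembly factors, the nucleolar proteins that process ribosomal RNA and mount the proteins, fell with Dex in both genotypes: 40 of 55 fell and 1 rose in Sox7+/- cells, at a median of −0.38, and 47 of 55 fell and 0 rose in Sox7-/- cells, at a median of −0.68, beside medians of 0.15 and 0.07 over all tested probes. Of all tested probes 25.3% and 31.4% fell and 37.2% and 33.9% rose in Sox7+/- and Sox7-/- cells. Under spike-in scaling 51 and 47 assembly factors were lower and 0 were higher in either, beside 44.1% and 31.1% of all tested probes lower. Over 2-fold, 5 and 12 fell under the 75th percentile, beside 14% and 14.3% of all tested probes. Heatr1, a factor of early ribosomal RNA transcription and processing, fell by 1.25 and 1.70, and Rrp12, an export and maturation factor of the small subunit, by 1.24 and 1.41. Dkc1, the pseudouridine synthase of box H/ACA particles, fell by 1.41 and 1.17. The interaction was below 0 for 9 of 55 and above for 0, beside 14.8% and 12.4% of all tested probes.

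The RNA polymerase I machinery had 5 of 14 genes fallen and 3 risen in Sox7+/- cells (median −0.11) and 9 fallen and 2 risen in Sox7-/- cells (median −0.43). Under spike-in scaling 9 were lower and 0 higher in each genotype. Rrn3, the initiation factor that ties polymerase I to growth signals, fell by 1.09 in Sox7-/- cells. Elongation factors and other genes with TOP messengers were close to the ribosomal proteins in Sox7+/- cells, with 4 of 15 risen and 2 fallen at a median of 0.10. In Sox7-/- cells 1 rose and 7 fell at a median of −0.15, a smaller fall than that of the ribosomal proteins. Under spike-in scaling 9 and 6 of these 15 were lower and 0 higher. Among 6 tested ribosomal proteins that the naming rule leaves out, such as Fau, 1 rose and 1 fell in Sox7+/- cells and 0 rose and 3 fell in Sox7-/- cells. Beside these lists, 37.2% of all tested probes rose and 25.3% fell in Sox7+/- cells, and 33.9% rose and 31.4% fell in Sox7-/- cells. With the spike-ins 11.5% of them were higher and 44.1% lower in Sox7+/- cells, and 26.4% higher and 31.1% lower in Sox7-/- cells.

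The 76 mitochondrial ribosomal proteins, which build the separate ribosome of mitochondria, had shares near those of all tested probes in Sox7+/- cells: 31 rose and 21 fell in Sox7+/- cells, at a median of 0.10, and 12 rose and 34 fell in Sox7-/- cells, at a median of −0.15. All tested probes rose in 37.2% and 33.9% and fell in 25.3% and 31.4%. Under spike-in scaling 5 were higher and 46 lower in Sox7+/- cells, and 7 higher and 35 lower in Sox7-/- cells. Of all tested probes 11.5% and 26.4% were then higher and 44.1% and 31.1% lower. Of regulators, the mTOR list had 8 of 13 risen and 2 fallen in Sox7+/- cells and 6 risen and 4 fallen in Sox7-/- cells, but under spike-in scaling 1 higher and 5 lower and then 2 higher and 3 lower. Eif4ebp1, the brake on cap-dependent translation, fell by 1.78 in Sox7-/- cells and differed by −0.10 in Sox7+/- cells, with an interaction of −1.68 (adjusted p = 5.4e-05). In the Myc network, 5 of 9 rose and 3 fell in each genotype, whereas under spike-in scaling 1 was higher and 4 lower in Sox7+/- cells and 2 higher and 3 lower in Sox7-/- cells. Myc, a transcriptional activator of ribosome genes, fell by 0.71 in Sox7+/- cells and by 3.36 in Sox7-/- cells. Its interaction was −2.65 (adjusted p = 6.2e-07), and its antagonist Mxd4 rose by 1.85 and 2.27. In the same list Mycn rose by 0.79 and 1.19, and Mxd3 fell by 1.72 and 1.70. Among 12 genes of p53 and its targets 3 rose and 5 fell in Sox7+/- cells and 5 rose and 4 fell in Sox7-/- cells. The cell cycle inhibitor Cdkn1a rose by 1.65 and 1.64, while Trp53 itself fell by 1.66 and 2.48. Perp fell by 2.65 in Sox7+/- cells and differed by −0.03 in Sox7-/- cells. Under spike-in scaling 1 of the 12 genes was higher and 9 lower in Sox7+/- cells, and 4 were higher and 4 lower in Sox7-/- cells.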

How the data were processed

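Total RNA of 4 groups (Sox7+/- or Sox7-/-, without or with Dex for 4 days) had been labelled and hybridized to 12 one-colour Agilent arrays, 3 per group. The authors deposited the intensity values of each array from Agilent Feature Extraction 10.7.3.1, in which the processed signal is background-subtracted but not scaled between arrays, and a table of linear intensity values, which is unscaled too. Probe positions are those of the array files (mm9). Repeat spots were averaged, and each array's log2 processed signals were centred on its own 75th percentile. A probe was tested if every array of some group read it well above background, and the 25940 such probes were fitted over all 12 arrays with limma 3.58.1 in R 4.3.3 (1.99 prior degrees of freedom), with Benjamini-Hochberg adjustment and a call at an adjusted p under 0.05, counted also over 2-fold. The script was tested on simulated data. The number of arrays limits the precision.

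The members and all gene lists were chosen with earlier results of these data known. Named genes were 10 fixed examples, the second copies, the 4 members with the largest rise and fall per comparison, members over 2-fold or with opposed probes, and up to 4 genes of each other list; some items this rule names are not reported here. Same-numbered replicates were not paired: their deviations from the group means had correlations between −0.05 and 0.13. The alternatives were spike-in scaling, quantile normalization, normexp background correction, scaling by the members' median, the deposited table, other filters, an intensity trend, slide and replicate blocks, single slides and leaving out each array. Spike-in scaling with a slide block or without single arrays was added after seeing the data. Of the Sox7+/- ES samples, 1 label gives all 3 the same replicate number, and the titles' numbers were used.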

Additional observations from a re-analysis of the deposited data

Results flagged for a closer look

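A Dex response that differed by genotype, tested as an interaction in limma under 75th percentile scaling, was past an adjusted p of 0.05 for these 10 named general genes, among others: Rps2 at −0.63, Rps18 at −0.54, Rpl11 at −0.51, Rps6 at −0.50, Rpsa at −0.41, Rpl38 at −0.39, Rps19 at −0.37, Rpl10 at −0.35, Rps27a at −0.34 and Rpl13a at −0.28. The general gene Rpl19, named above, passed as well and is not among these 10. Under spike-in scaling the same 10 genes lay between −0.23 and 0.12 and 0 of 10 passed. With the slide as a block they lay between −0.53 and −0.28 and 1 of 10 passed.

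The Rps24 junction probe had an interaction of −2.32 by the same test. Over 24 settings that could be fitted, leaving out arrays among them, its interaction lay between −2.39 and −1.91 with a largest adjusted p of 0.0018. The same range for Dex alone was −1.74 to −1.18 in Sox7+/- cells and −3.65 to −3.24 in Sox7-/- cells, each over 25 settings. Between the genotypes in ES cells it lay between 0.48 and 0.79 over 24 settings, with a largest adjusted p of 0.41, with the slide as a block and spike-in scaling.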

How the results depend on the processing

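The counts of members past the threshold and their medians depended mainly on the scaling. In the lists that follow, values run in the order Dex in Sox7+/- cells, Dex in Sox7-/- cells, genotypes in XEN-like cells, genotypes in ES cells and interaction. Under spike-in scaling 0, 0, 1, 1 and 0 members were higher and 57, 48, 0, 0 and 0 lower, with medians of −0.39, −0.37, 0.13, 0.12 and 0.012. Under quantile normalization 2, 6, 1, 4 and 0 were higher and 15, 20, 1, 1 and 0 lower, with medians of −0.057, −0.055, 0.020, 0.039 and 0.010. With scaling by the members' median 23, 19, 2, 3 and 0 were higher and 5, 11, 0, 1 and 0 lower, with medians of 0.076, 0.045, −0.023, 0.010 and −0.036, and 0 members differed over 2-fold between ES cells. With normexp 9, 0, 2, 67 and 0 were higher and 6, 54, 2, 0 and 37 lower, with medians of 0.022, −0.27, −0.034, 0.28 and −0.31. With the deposited table's values, 0, 0, 12, 2 and 0 were higher and 26, 21, 0, 0 and 0 lower, with medians of −0.35, −0.30, 0.32, 0.28 and 0.035. With no filter 8, 0, 1, 31 and 0 were higher and 2, 41, 0, 0 and 33 lower. In XEN-like cells 7 were lower with a filter on all arrays and 14 with an intensity trend.

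With the slide as a block 2, 27 and 6 were lower for Dex in Sox7+/- cells, Dex in Sox7-/- cells and the interaction, and between ES cells 0 were higher, 0 over 2-fold, at a median of 0.18. With the slide block and spike-in scaling, 0 were higher in all but XEN-like cells (1), 53, 12, 0, 0 and 0 were lower, 0 were over 2-fold between ES cells, and medians were −0.39, −0.35, 0.12, 0.083 and 0.036. Within slide 2, 2 were lower with Dex in Sox7+/- cells and 0 between XEN-like cells, and within slide 1, 13 were lower with Dex in Sox7-/- cells, where the lone XEN-like array is assumed to vary like the others. With replicate numbers as a block 0 were lower between XEN-like cells; the other counts were 20 higher and 3 lower with Dex in Sox7+/- cells, 50 lower in Sox7-/- cells, 61 higher between ES cells and 49 below in the interaction. The cause of these shifts was not tested.

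Leaving out each array in turn, with Dex in Sox7+/- cells 9 to 26 were higher and 2 to 5 lower, 2 to 3 over 2-fold, with medians of 0.075 to 0.14. In Sox7-/- cells 0 to 0 were higher, 43 to 59 lower and 3 to 3 over 2-fold, with medians of −0.32 to −0.25. Between XEN-like cells 1 to 1 were higher and 0 to 10 lower, 1 to 2 over 2-fold, with medians of −0.15 to −0.090, and between ES cells 42 to 70 were higher, with medians of 0.24 to 0.31. For the interaction 35 to 63 were below and 0 to 1 above, 0 to 2 over 2-fold, with medians of −0.42 to −0.35. Under spike-in scaling without single arrays the ranges were 34 to 56 lower with Dex in Sox7+/- cells (medians −0.43 to −0.29), 32 to 63 in Sox7-/- cells (−0.40 to −0.32), 1 to 3 higher between XEN-like cells (0.037 to 0.18), 1 to 7 higher, 0 to 1 over 2-fold, between ES cells (0.087 to 0.19), and 0 to 1 above, 0 to 1 over 2-fold, in the interaction (−0.085 to 0.075).

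Of 1415 values of named genes under alternatives, 142 lost and 30 gained the threshold with the sign kept. Changes of sign were counted only where the value passed in the main setting or in the alternative, and there were 39. For Dex in Sox7+/- cells these were, under spike-in scaling, Rpl15 −0.15, Rpl23 −0.18, Rplp0 −0.26, Rps20 −0.16, Rps27l −0.36 and Rps6 −0.40; under quantile normalization Rplp0 −0.026; and in the deposited table Rpl15 −0.15, Rpl23 −0.16, Rplp0 −0.23 and Rps20 −0.12. For Dex in Sox7-/- cells they were Rpl23 0.17, Rpl7a 0.26 and Rps24 0.16 under quantile normalization, and Rpl13a 0.030, Rpl23 0.29, Rpl7a 0.32, Rplp0 0.24 and Rps24 0.28 under the members' median. Rps2 between XEN-like cells was 0.10 in the deposited table, and Rpl13a between ES cells −0.11 under quantile normalization and −0.087 under the members' median. For the interaction they were Rpl10 0.051, Rpl13a 0.12, Rpl38 0.0091, Rps19 0.035 and Rps27a 0.056 under spike-in scaling, Rpl10 0.041, Rpl13a 0.12, Rps19 0.025 and Rps27a 0.074 under quantile normalization, Rpl10 0.0036, Rpl13a 0.068 and Rps27a 0.0085 under the members' median, and Rpl10 0.16, Rpl13a 0.24, Rpl38 0.11, Rps19 0.052 and Rps27a 0.20 in the deposited table. The fall of Rpl3l in Sox7+/- cells also lost the threshold with normexp (−0.01) and quantile normalization (−1.36, adjusted p = 0.054). Signals near background limit what can be said of Rpl3l and of the second Rpl10l probe.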
